A study of Homo sapiens with 4 samples.

Results

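The genes described here are 9 genes of the epithelial-mesenchymal transition (EMT), examined for chromatin accessibility in HepG2 cells, an established human hepatocellular carcinoma line. They comprise the epithelial adhesion genes CDH1 and EPCAM, the mesenchymal genes CDH2 and VIM, and the transcription factors SNAI1, SNAI2, ZEB1, ZEB2 and TWIST1. The members were given by name, and the data examined were every called peak that overlapped a gene body in GENCODE or the 10 kb on either side of it. These windows held 45 of the 80551 accessible regions of the series, where a region is a set of peaks from any libraries that overlap by at least 1 bp. The assay was the transposase-accessible chromatin assay with sequencing (Omni-ATAC-seq), which cuts DNA where nucleosomes and other proteins leave it free. One group (control) was wild-type HepG2 left untreated, and the other (tazemetostat) was the same line given tazemetostat, dissolved in DMSO, at 5 µM for 48 h. Each group had 2 libraries of 50000 cells. The study's methods describe a DNase I step on the tazemetostat-treated cells before the assay, to clear free DNA and DNA of dead cells. They name no such step for the controls, so its part in group differences cannot be told apart from the drug's. The labels call the controls untreated and give no vehicle for them, and they do not say whether the libraries of a group came from separate cultures, so p-values measure only the spread between these libraries, which may be technical.

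EMT is the programme by which epithelial cells lose their junctions and polarity and gain motility. E-cadherin (CDH1) and EPCAM hold epithelial cells together, N-cadherin (CDH2) and the filament protein vimentin (VIM) mark the mesenchymal state, and the SNAI, ZEB and TWIST factors bind E-box sequences and repress epithelial genes. Tazemetostat inhibits EZH2, the polycomb enzyme that trimethylates histone H3 at lysine 27 (H3K27), a mark of silenced genes, and polycomb has been studied widely at E-cadherin and at the EMT factors. The question for the series was how accessibility differs once EZH2 is inhibited.

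Mapped tags numbered 17.2 M and 23.8 M in the controls and 19.8 M and 26.6 M under tazemetostat, and called peaks 26133, 34768, 55313 and 54157 in the same order. Control 1 was the shallowest library and had the fewest peaks. A peak list has no value where no peak was called, so a missing peak is not a measurement of closed chromatin. A peak had to exceed the surrounding 10 kb by 4-fold, a filter that took out 77.0% and 80.0% of the candidate peaks of control 1 and 2 and 62.7% and 70.9% of those of tazemetostat 1 and 2. Peak heights are normalised tag counts (tags in the peak per 10 M mapped tags of the library), and the listed EMT peaks rested on 13 to 191 tags each, so low values carry wide counting errors. As a check on the label, 9 hepatocyte and HepG2 marker genes were examined. The start of 5 (APOA1, APOB, TTR, SERPINA1 and HNF4A) lay under a region called in all 4 libraries. Another 3 (ALB, AFP and FOXA2) had no peak at the start, and FOXA1 had a region of 1 tazemetostat library there. Of 6 leukocyte, endothelial and stromal marker genes, 0 had a start under a region of all libraries and 6 had no peak there. Of all protein-coding starts, 30.0% lay under a region of all libraries and 49.9% under no peak. The windows of those 6 genes were not empty, since 3 (PECAM1, PDGFRB and CDH5) held regions called in all 4 libraries and 3 (CD3E, PECAM1 and COL1A1) held a tazemetostat-only region.

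The sequences below show what DNA lay at the sites the results turn on. RefSeq promoters (GRCh38.p14, 250 bases before the start and 50 after) matched CDH2, VIM, ZEB1 and ZEB2, and not CDH1, EPCAM, SNAI1, SNAI2 and TWIST1. The CDH2, VIM and ZEB1 promoters are shown because these genes differed in whether a peak was called near the start. Capitals mark E-boxes searched on both strands, namely CAGGTG (bound by ZEB and SNAI factors), CAGATG and CATATG (bound by TWIST factors), which do not overlap each other in the sequences shown. The CDH2 stretch is chr18:28177131-28177380 on the minus strand, the VIM stretch chr10:17227991-17228240 on the plus strand, and the ZEB1 stretch chr10:31318966-31319124 on the plus strand, which ends where annotated untranslated sequence begins.
CDH2 promoter: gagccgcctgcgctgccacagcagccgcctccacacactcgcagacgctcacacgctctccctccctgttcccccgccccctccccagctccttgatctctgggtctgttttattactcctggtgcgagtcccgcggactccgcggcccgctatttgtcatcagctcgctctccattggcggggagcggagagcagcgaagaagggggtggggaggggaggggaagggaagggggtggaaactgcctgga
VIM promoter: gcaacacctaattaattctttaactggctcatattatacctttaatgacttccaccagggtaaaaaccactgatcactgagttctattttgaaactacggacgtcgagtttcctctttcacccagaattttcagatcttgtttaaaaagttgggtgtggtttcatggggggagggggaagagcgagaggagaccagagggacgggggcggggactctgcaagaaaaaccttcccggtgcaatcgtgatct
ZEB1 promoter: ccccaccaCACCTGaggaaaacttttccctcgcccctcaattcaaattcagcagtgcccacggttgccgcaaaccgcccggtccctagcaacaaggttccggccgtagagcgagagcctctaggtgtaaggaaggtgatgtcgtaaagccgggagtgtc

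The ZEB1 promoter held 3 CAGGTG boxes, at -242, -85 and 34 counted from the start, and the latter pair is shown with flanking bases from chr10:31319120-31319147 and chr10:31319238-31319265.
ZEB1 upstream box: gtgtcgtaaacCAGGTGcggtggggagg
ZEB1 downstream box: gcggatggcccCAGGTGtaagcgcagaa
CAGGTG was found in 20.6% of all 35116 promoters of that length. The CDH2, VIM and ZEB2 promoters at these canonical starts had none, and no match says only that these letters were not in this window. GGGCGG, bound by SP and KLF factors, was in 45.0% of all promoters and was present in those of CDH2, VIM and ZEB1. Of the regions, the central 200 bases (hg38, plus strand) are shown for the tallest intron region of CDH1 (chr16:68792861-68793060), the intron region of EPCAM called under tazemetostat alone (chr2:47354383-47354582), the single CDH2 region called in every library (chr18:28127889-28128088), and the tazemetostat-only regions upstream of CDH2 (chr18:28183807-28184006) and inside ZEB2 (chr2:144427228-144427427).
CDH1 intron region: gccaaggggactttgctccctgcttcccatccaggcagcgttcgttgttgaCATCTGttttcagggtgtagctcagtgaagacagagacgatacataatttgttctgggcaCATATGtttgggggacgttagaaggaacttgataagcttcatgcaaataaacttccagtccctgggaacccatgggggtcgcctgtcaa
EPCAM intron region: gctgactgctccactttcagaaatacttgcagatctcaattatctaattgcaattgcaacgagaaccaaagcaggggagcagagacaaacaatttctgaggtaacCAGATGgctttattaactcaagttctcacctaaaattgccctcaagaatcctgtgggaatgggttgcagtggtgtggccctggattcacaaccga
CDH2 intron region: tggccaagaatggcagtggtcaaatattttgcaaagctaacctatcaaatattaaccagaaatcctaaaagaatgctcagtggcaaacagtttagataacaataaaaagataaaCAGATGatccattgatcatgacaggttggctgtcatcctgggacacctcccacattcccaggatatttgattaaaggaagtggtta
CDH2 upstream region: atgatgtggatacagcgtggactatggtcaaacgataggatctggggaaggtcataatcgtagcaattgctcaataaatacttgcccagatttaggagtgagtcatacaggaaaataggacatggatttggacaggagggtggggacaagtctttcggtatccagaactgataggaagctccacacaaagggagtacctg
ZEB2 region: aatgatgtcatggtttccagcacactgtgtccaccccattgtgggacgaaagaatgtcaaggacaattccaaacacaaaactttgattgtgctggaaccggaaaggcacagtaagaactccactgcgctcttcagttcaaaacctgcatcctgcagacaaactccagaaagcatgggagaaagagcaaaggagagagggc

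In these central windows CAGGTG occurred in 7 of the 45 EMT regions (15.6%) against 18.6% of 78215 regions on the primary chromosomes, and CAGATG in 10 of 45 (22.2%) against 14%. CAGGTG was found in 2 of 19 epithelial, 2 of 14 mesenchymal and 3 of 12 factor regions. TGTTTAC, the FOXA sequence, was in 2 of 45 (4.44%) against 6.5%, and CATATG in 1 of 45 (2.22%) against 2.44%. These counts are small and describe letters, not binding.

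Called regions lay more densely at the epithelial genes than at the mesenchymal genes or the factors. The windows of CDH1 and EPCAM held 19 regions in 181 kb (10.5 per 100 kb), those of CDH2 and VIM 14 regions in 294 kb (4.76 per 100 kb), and those of the 5 factors 12 regions in 575 kb (2.09 per 100 kb). The spread was wide within each role, from 14.4 per 100 kb at EPCAM and 8.46 at CDH1 to 4.90 at CDH2 and 3.41 at VIM. Among the factors it ran from 4.14 at SNAI2 to 0 at TWIST1. Gene length differs strongly between the members, and no test was run over so few genes.

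Of the 45 regions, 8 were called in all 4 libraries (17.8%, with 20.4% over all regions of the series), 7 in both tazemetostat libraries and no control (15.6%, with 13.7% over all regions) and 0 in both controls alone (0.449% over all regions). A further 6 were called in both tazemetostat libraries and 1 control (13.2% over all regions), and 13 in a single tazemetostat library. These shares lay near those of the whole series. The regions called in all libraries were 7 of 19 at the epithelial genes, 1 of 14 at the mesenchymal genes and 0 of 12 at the factors. Tazemetostat-only regions were 3, 3 and 1 in the same order. Peaks in the 9 windows numbered 16 and 21 in the controls and 35 and 29 under tazemetostat, with no overlap between the groups, as over the whole series.

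**Figure D1:**
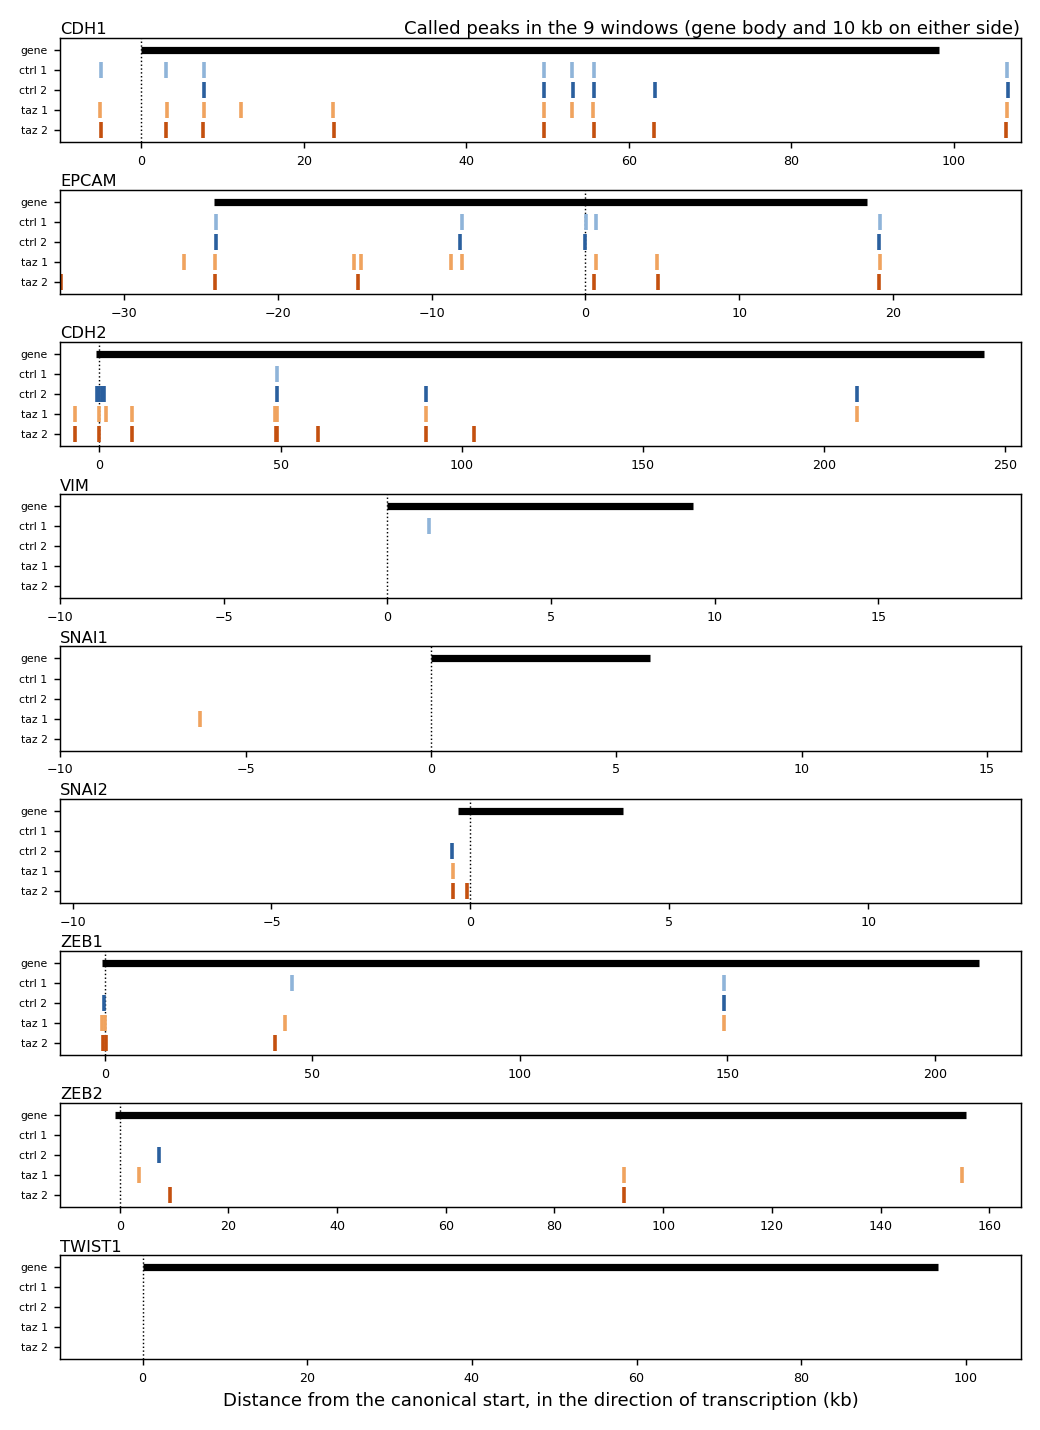
Peaks called in each library (coloured ticks, 1 row per library: ctrl, control; taz, tazemetostat) in the window of each EMT gene, by distance from the canonical transcription start in kb, with the gene body as a black bar. CDH1, EPCAM and CDH2 carry most peaks, CDH1 has none at its start in any library, and TWIST1 has none at all.

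**Figure D2:**
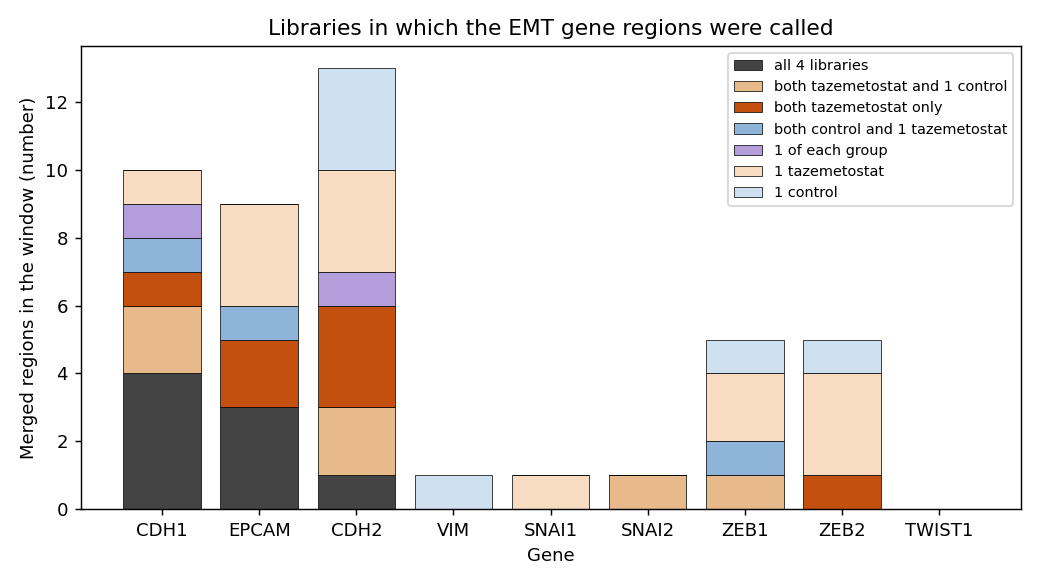
Number of merged regions in each gene's window, stacked by the libraries in which they were called. CDH1 has 10, EPCAM 9 and CDH2 13 regions, while VIM, SNAI1 and SNAI2 have 1 each and TWIST1 has 0.

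CDH1 encodes E-cadherin, the calcium-dependent cadherin of epithelial adherens junctions. Its window (gene body chr16:68737292-68835537, plus strand) held 10 regions, of which 4 were called in all libraries, and 8 lay in CDH1 introns. No peak was listed over the CDH1 start in any library. The nearest peaks lay 2897 bp away in control 1, 7536 bp in control 2, 2941 bp in tazemetostat 1 and 2924 bp in tazemetostat 2. A start without a peak was found for 49.9% of protein-coding genes.

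The tallest CDH1 region (chr16:68792505-68793415, 55.7 kb downstream of the start, intronic) had a normalised tag count of 18.6 in control 1, 25.6 in control 2, 38.8 in tazemetostat 1 and 42.9 in tazemetostat 2. Both tazemetostat libraries were above both controls. It rose by 0.87 on the log2 scale (SE 0.30, adjusted p = 0.03, limma), but per kilobase of peak the change was 0.50, with an adjusted p of 0.0616 in limma.

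The region 49.6 kb downstream (chr16:68786622-68787158, intronic) measured 10.5 and 11.8 in the controls and 15.6 and 25.6 under tazemetostat, again without overlap. It rose by 0.79 on the log2 scale (SE 0.31, adjusted p = 0.046, limma). The region 7.68 kb downstream (chr16:68744679-68745263, intronic) measured 20.9 and 17.2 in the controls against 27.7 and 25.6 under tazemetostat. The groups did not overlap, but the change of 0.47 (SE 0.30) missed the threshold, with an adjusted p of 0.17 in limma.

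The last tested region of the window (chr16:68843344-68844219) lies beyond the end of CDH1 and spans the start of TANGO6, a gene for an organelle transport protein, so it cannot be assigned to CDH1. It measured 20.9 and 10.9 in the controls against 26.7 and 35.4 under tazemetostat, a rise of 0.98 (SE 0.33, adjusted p = 0.0272, limma). The controls were farther from each other here than the higher control was from the lower tazemetostat library.

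A region 23.6 kb into CDH1 (chr16:68760605-68761246, intronic) was called under tazemetostat alone, with 18.1 and 13.6. A pair of flanking regions lacked a peak in control 2 alone. The region 3.07 kb downstream of the start (chr16:68740189-68740533) measured 13.4 in control 1, 19.1 in tazemetostat 1 and 17.3 in tazemetostat 2. The region 4.99 kb upstream (chr16:68732086-68732521) measured 8.73, 12.1 and 11.7 in the same libraries. These were the listed sites closest to the CDH1 start. The other 3 regions of the window had means between 9.24 and 13.1.

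EPCAM encodes an epithelial adhesion molecule that is low in adult hepatocytes and present on liver progenitors and many carcinomas. Its window (gene body chr2:47345158-47387601, plus strand) held 9 regions, 3 of them in all libraries and 2 under tazemetostat alone. The gene has a canonical start and a distal start upstream of it, the latter under a region centred 24.1 kb from the former, and peaks were called near both.

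The distal region (chr2:47344835-47345652) lies over the first annotated EPCAM start and that of the divergent transcript EPCAM-DT, and it was the tallest EMT region of all. It measured 41.9 in control 1, 56.3 in control 2, 91.7 in tazemetostat 1 and 71.9 in tazemetostat 2. The tazemetostat libraries were both higher, with group means of 49.1 ± 10.2 and 81.8 ± 14 (SD, n = 2), and an exact permutation test gave a two-sided p = 0.33, the smallest that 2 against 2 libraries allow. In limma the change of 0.73 (SE 0.30) just missed the threshold, with an adjusted p of 0.0554. Per kilobase of peak it was 0.67 and passed, with an adjusted p of 0.0151 in limma.

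The region at the canonical start (chr2:47369094-47370218) summed to 20.4 in control 1, 10.9 in control 2, 19.1 in tazemetostat 1 and 22.2 in tazemetostat 2. The groups overlapped, with means of 15.7 ± 6.72 and 20.6 ± 2.19 (SD, n = 2) and an exact permutation p = 0.6667. The difference of 4.99 was 0.24 without control 2. Control 1 had 2 peaks in it, so it was not among the regions fitted in limma. The groups differed in whether a peak crossed the start base. Both controls had a peak across the start base itself, at chr2:47369154-47369575 with 11.1 in control 1 and chr2:47369094-47369469 with 10.9 in control 2. The tazemetostat peaks began 453 bp and 259 bp downstream of that base, with 19.1 and 22.2. The other peak of control 1, at chr2:47369778-47370174 with 9.31, lay inside the stretch of both tazemetostat peaks. A start base inside a peak of both controls and of no tazemetostat library was found for 0.0900% of protein-coding genes, and one inside a peak of all 4 for 24.8%. This detail was singled out after its values were seen. The fragment length that the file headers give differed between the groups (200 bp and 144 bp), and its part in where the peaks fell cannot be told apart from the treatment.

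The tazemetostat-only regions of EPCAM lay in an intron 14.8 kb upstream of the canonical start (chr2:47354084-47354880, 25.2 and 24.8, the former from 2 peaks) and over a coding exon 4.69 kb downstream (chr2:47373801-47374203). The latter measured 18.1 (95% Poisson interval 12.7 to 25.1) and 18.4 (13.6 to 24.4), at 7.40-fold and 8.43-fold over the local background. Intervals cover counting error only. A region just past the gene end (chr2:47388090-47388717) measured 9.31 and 16.8 in the controls against 16.1 and 21.5 under tazemetostat, so the groups overlapped, and its change of 0.53 (SE 0.32) gave an adjusted p of 0.153 in limma. The single-library region 26.1 kb upstream of the canonical start had 25.2 in tazemetostat 1 and ranked among the tallest of the window. The other 3 regions had means between 9.79 and 12.8.

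**Figure D3:**
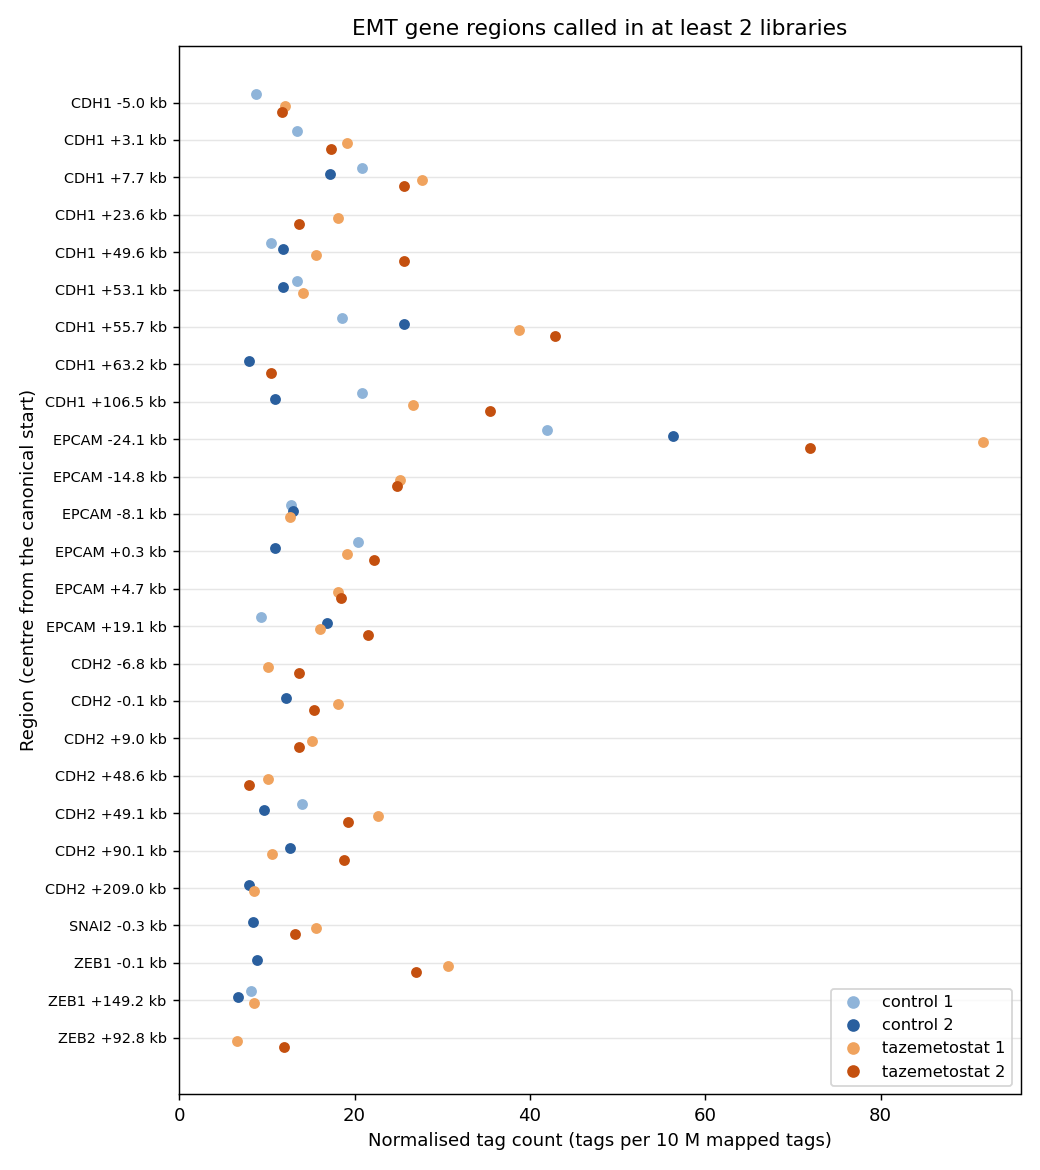
Normalised tag count in each library (dots, tags per 10 M mapped tags) for the 26 EMT regions called in at least 2 libraries, labelled by gene and distance of the centre from the canonical start. The distal EPCAM region is the tallest, from 41.9 to 91.7, and a missing dot means that no peak was called.

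CDH2 encodes N-cadherin, the cadherin gained as cells become mesenchymal. The gene is long (gene body chr18:27932879-28177946, minus strand) and its window held 13 regions, 1 of them in all libraries. Peaks in the window numbered 1 in control 1, 7 in control 2 and 8 in each tazemetostat library, so control 1 stood apart from the other libraries, control 2 among them.

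The CDH2 region called in all libraries (chr18:28127715-28128262, 49.1 kb into the gene, intronic) measured 14 in control 1, 9.66 in control 2, 22.7 in tazemetostat 1 and 19.2 in tazemetostat 2. The groups did not overlap. It rose by 0.79 on the log2 scale (SE 0.30, adjusted p = 0.0429, limma), but per kilobase of peak the change was 0.29, with an adjusted p of 0.271 in limma. The peak was also wider in tazemetostat libraries, at 453 and 547 bp against 300 and 386 bp in the controls.

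At the CDH2 start the region (chr18:28176928-28177517) had no peak in control 1, 12.2 in control 2, 18.1 in tazemetostat 1 and 15.4 in tazemetostat 2. The peaks of these 3 libraries all crossed the start base. Control 2 had 3 more small peaks centred up to 1.39 kb from it, 1 of them over an upstream CDH2 start (chr18:28177704-28178081) with 10.1. A peak at the start was thus called in 1 of 2 controls. Starts under a region of both tazemetostat libraries and 1 control made up 9.0% of protein-coding genes, and over all such regions of the series the control was control 2 in 80.1%.

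Tazemetostat-only regions of CDH2 lay 6.78 kb upstream (chr18:28183716-28184096, 10.1 and 13.6), 9.04 kb into the gene (chr18:28167809-28168380, 15.1 and 13.6) and beside the shared intron region (chr18:28128369-28128752, 10.1 and 7.91). The upstream region stood 18.5-fold and 18.8-fold over its surroundings. Another region, 90.1 kb in (chr18:28086643-28087349), measured 12.6 in control 2, 10.6 in tazemetostat 1 and 18.8 in tazemetostat 2, and none was called in control 1. The remaining regions were called in 1 or 2 libraries with means from 6.40 to 8.82.

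VIM encodes vimentin, the intermediate filament of mesenchymal cells. Its window (gene body chr10:17228241-17237593) had a single peak, in control 1, at chr10:17229373-17229673 and 1132 bp from the start. It measured 8.14 (95% Poisson interval 4.45 to 13.7, from 14 tags). It spanned the start of the antisense VIM-AS1, and its centre lay within 1 kb upstream or 100 bp downstream of another annotated VIM start. No peak was listed at the canonical VIM start in any library.

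The EMT transcription factors had few and low peaks. SNAI1 (Snail), a zinc-finger repressor of CDH1, had 1 peak 6.23 kb upstream of the gene (chr20:49976564-49976940), with 17.1 (95% Poisson interval 11.9 to 23.9) in tazemetostat 1 alone. TWIST1, a basic helix-loop-helix factor, had no peak in its window in any library, which was the case for 13.2% of protein-coding windows.

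SNAI2 (Slug), the close relative of SNAI1, had 1 region over its start (chr8:48921359-48922125). It was not called in control 1 and measured 8.40 in control 2, 15.6 in tazemetostat 1 and 13.2 in tazemetostat 2, the last from 2 peaks. Only the tazemetostat 2 peak crossed the start base, with the nearest peaks 256 bp away in control 2 and 178 bp in tazemetostat 1.

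ZEB1, a zinc-finger and homeobox repressor, had 5 regions, the tallest over its start and that of the antisense ZEB1-AS1 (chr10:31318418-31319716), which spans the promoter shown above. It was not called in control 1 and summed to 8.82 in control 2, 30.7 in tazemetostat 1 and 27.1 in tazemetostat 2. Each tazemetostat library had 2 peaks in it and control 2 had 1, which lay 75 bp upstream of the start. The start base itself was crossed by a peak of tazemetostat 1 alone, with the nearest tazemetostat 2 peak 15 bp away. Another region, 149 kb into the gene (chr10:31468241-31468576), was among the few called in both controls and 1 tazemetostat library, with 8.14, 6.72 and 8.57 in control 1, control 2 and tazemetostat 1. The other 3 were called in a single library each, with values from 7.15 to 8.14.

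ZEB2 had 5 regions and no peak at its canonical start. The region called under tazemetostat alone (chr2:144427137-144427518, in sequence annotated as a retained intron) measured 6.55 (95% Poisson interval 3.49 to 11.2) and 12.0 (8.24 to 17) and stood 19.1-fold and 21.3-fold over its surroundings. The other 4 were called in a single library each, with values from 5.88 to 10.2, 1 of them over an alternative start, in tazemetostat 1 alone, with 7.05.

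Over the 9 genes, the canonical start lay under a region called in all libraries for EPCAM alone (1 of 9, with 30.0% over protein-coding genes). For CDH2, SNAI2 and ZEB1 it lay under a region called in both tazemetostat libraries and control 2. At SNAI2 and ZEB1, however, a peak of 1 tazemetostat library alone crossed the start base. For CDH1, VIM, SNAI1, ZEB2 and TWIST1 the start lay under no region. A region called in all libraries was found in 3 of 9 windows (52.5% over protein-coding windows) and a tazemetostat-only region in 4 of 9 (32.5%).

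The EMT regions with exactly 1 peak per library, 7 in number, were tested with limma among 15383 such regions of the series. Of the 7, 4 rose and 0 fell, with 42.7% of all tested regions called higher and 0.247% lower. The 4 were the CDH1 regions at 49.6 and 55.7 kb, the region at the TANGO6 start and the CDH2 intron region. All 7 changes were above 0, as were 95.4% of all changes, and their median was 0.79 beside 0.70 over all tested regions. With each library centred on its median, the 7 changes ran from -0.29 to 0.22 and 0 passed. No region of the series passed in that fit (0 of 15383 at an adjusted p under 0.05, and 1656 at an unadjusted p under 0.05, limma). The 4 rises were thus 0.03 to 0.22 in the centred fit, where the median over all tested regions was -0.06. Leaving out tazemetostat 1 or tazemetostat 2 left 0 rises. Without control 1 the CDH1 regions at 49.6 kb (adjusted p = 0.101, limma) and 55.7 kb (adjusted p = 0.131, limma) were lost. Without control 2 the TANGO6 start (adjusted p = 0.156, limma) and the CDH2 intron region (adjusted p = 0.15, limma) were lost and the distal (adjusted p = 0.0153, limma) and end regions (adjusted p = 0.0164, limma) of EPCAM passed.

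**Figure D4:**
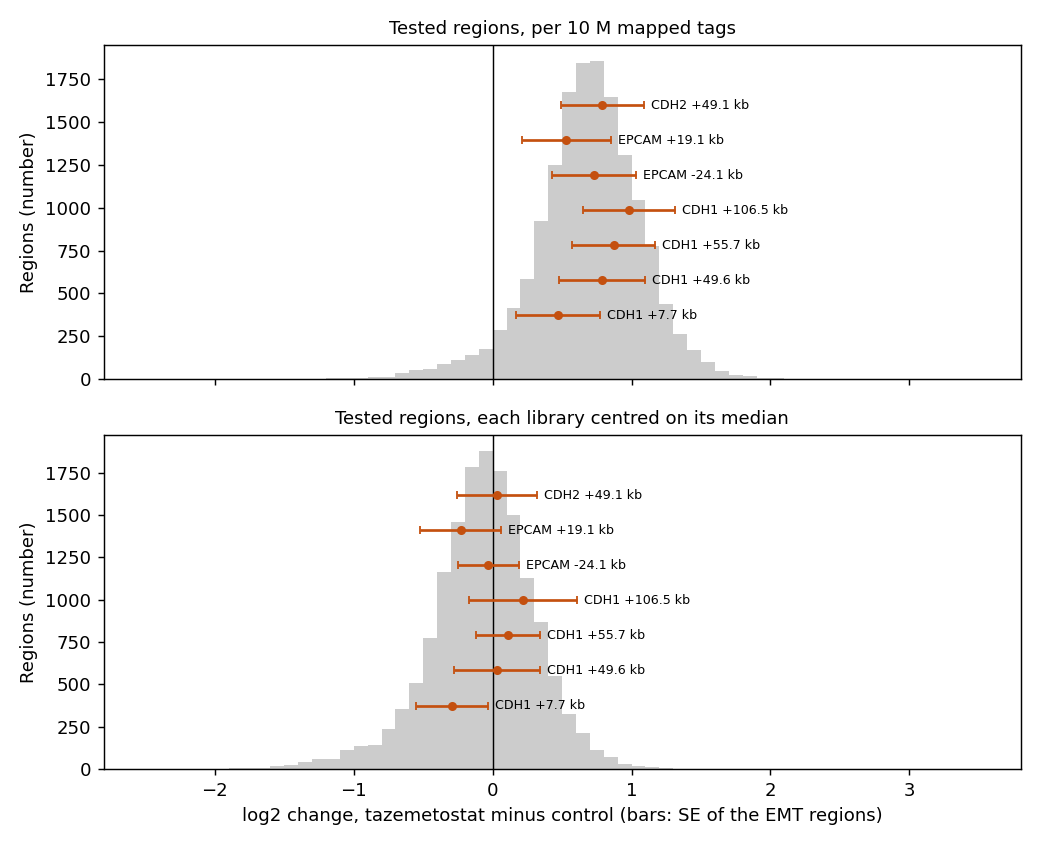
Distribution of log2 changes (tazemetostat minus control) over the 15383 tested regions (grey bars, number of regions) with the 7 EMT regions as dots with SE bars at arbitrary heights, per 10 M mapped tags above and with each library centred on its median below. The EMT regions lie within the bulk of the distribution in both panels.

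To compare the roles, tag counts of all peaks in a window were summed per library. CDH1 summed to 106 and 85.3 in the controls and 183 and 183 under tazemetostat. EPCAM summed to 84.4 and 97.0 in the controls and 220 and 169 under tazemetostat. Both epithelial genes stood high among protein-coding windows, at percentiles from 92.6 to 97.7 over the libraries, on a total that grows with window length. CDH2 summed to 14 in control 1, 68.5 in control 2, 104 in tazemetostat 1 and 102 in tazemetostat 2, at percentiles from 51.0 to 88.1.

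ZEB1 summed to 16.3 and 15.5 in the controls and 46.8 and 34.2 under tazemetostat. ZEB2 summed to 0 and 5.88 in the controls and 21.2 and 22.2 under tazemetostat, where 0 means that no peak was listed. The 6 genes CDH1, EPCAM, CDH2, SNAI2, ZEB1 and ZEB2 were higher in both tazemetostat libraries than in both controls, each with an exact permutation p = 0.33, the smallest possible (6 of 9, with 67.6% over protein-coding windows), and VIM, SNAI1 and TWIST1 were not. That number was 6 over the gene body alone and 7 with 50 kb flanks. It was 3 (EPCAM, CDH2 and ZEB2) with a local fold of at least 8. With as many peaks taken from each library it was 3 (CDH1, EPCAM and ZEB1), and per 10 M tags in peaks 1 (ZEB2). The share over protein-coding windows was computed for the main setting alone, so these counts cannot be read as particular to the EMT genes. Tags in peaks made up 4.32% and 5.69% of mapped tags in the controls and 11.51% and 9.81% under tazemetostat, and their part in these sums was not tested. Per 10 M tags in peaks the difference turned negative for CDH1 (-254) and EPCAM (-15.8) and was 209 for CDH2. The groups overlapped for all of these genes. CDH1 summed to 2463 and 1499 in the controls and 1593 and 1862 under tazemetostat. EPCAM summed to 1954 and 1705 in the controls and 1909 and 1719 under tazemetostat. For both, control 1 was the highest library and control 2 the lowest, so the negative signs rested on control 1. On that scale CDH2 summed to 324 and 1204 in the controls and 902 and 1044 under tazemetostat. Control 2 thus lay above both treated libraries, and the positive sign rested on control 1.

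The summed epithelial count (CDH1 and EPCAM) was 191 and 182 in the controls and 403 and 351 under tazemetostat. The mesenchymal count (CDH2 and VIM) was 22.1 and 68.5 in the controls and 104 and 102 under tazemetostat. The log2 ratio of epithelial to mesenchymal counts was 3.11 in control 1, 1.41 in control 2, 1.96 in tazemetostat 1 and 1.78 in tazemetostat 2. Both tazemetostat values lay between the controls, and the difference of the means of -0.39 (control 2.26 ± 1.20, tazemetostat 1.87 ± 0.13, SD, n = 2) was smaller than the spread between controls. Without control 1 the difference was 0.45 and without control 2 it was -1.24, so its sign rests on which control is used. Every library had more listed signal at the epithelial genes, by 2.66 to 8.62 times.

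**Figure D5:**
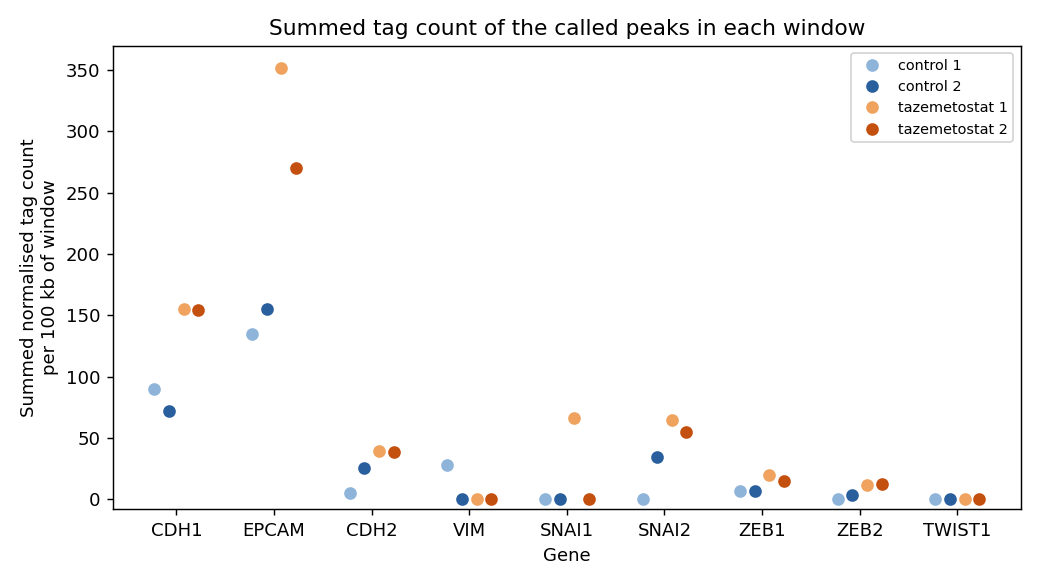
Summed normalised tag count of the called peaks per 100 kb of window (vertical axis) for each EMT gene and library (dots). CDH1 and EPCAM lie above CDH2 and the ZEB genes in every library, and dots at 0 mean that no peak was called.

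The surroundings of the CDH2 peaks differed in level from those of the CDH1 and EPCAM peaks. The local background, taken as the tag density of a peak divided by its fold over the surrounding 10 kb, had a median per kb of 8.12 at CDH1 and 6.95 at EPCAM against 2.71 at CDH2. The difference did not extend to every gene of the other roles, as the single peaks of VIM and SNAI1 had 4.98 and 9.72, the latter above both epithelial genes. Nor did it hold along all of CDH2, where peaks centred within 1.7 kb of the start had 4.73 to 6.75, at 4.13-fold to 5.6-fold. The medians over all peaks of the series were between 4.89 and 5.45 by library. Conversely, the median fold over the local background was 4.62 at CDH1 and 5.19 at EPCAM, close to the required 4-fold, and 9.73 at CDH2. In control 2 alone the medians over the epithelial and the mesenchymal peaks were close, at 5.05 and 5.6. The background and the fold are linked by construction, and their part in the missing peak at the CDH1 start was not tested.

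The protein-coding genes whose summed counts were most like those of CDH1 over the 4 libraries, by Euclidean distance of log2(sum + 1) among 20006 genes, were NQO2 (distance 0.12), ATF7-NPFF (0.18) and ATF7 (0.18). NQO2, a quinone reductase, summed to 104 and 80.7 in the controls and 190 and 174 under tazemetostat. ATF7 and the readthrough gene ATF7-NPFF overlap and share their peaks.

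Further genes of the pathway were counted in the same windows. Of 22 further epithelial genes, 5 starts lay under a region of all libraries (30.0% over protein-coding genes). Another 3 lay under a tazemetostat-only region (4.61% over protein-coding genes) and 13 under no peak (49.9%). The 3 were OCLN and CLDN4, tight junction genes, and KRT19, a keratin of the bile duct. Of the epithelial genes, 13 (59.1%) had a tazemetostat-only region in the window, against 32.5% of protein-coding windows. Counted by region, 18 of 86 (20.9%) were tazemetostat-only, with 13.7% over all regions of the series. In limma 5 of 18 tested regions rose (27.8%, against 42.7% of all tested regions) and 1 fell (0.247% of all), the region shared by the KRT8 and KRT18 windows being counted for both. The 1 that fell lay in the window of the tight junction scaffold TJP1 (chr15:29949134-29950189), with 44.2 and 62.6 in the controls against 17.6 and 43.7 under tazemetostat, a change of -0.89 (SE 0.36, adjusted p = 0.0487, limma). Both CLDN1 regions rose, the taller (chr3:190330782-190331498) from 20.4 and 21.8 to 41.8 and 40.3, a change of 0.93 (SE 0.29, adjusted p = 0.0224, limma).

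Of 19 further mesenchymal genes, 1 start, that of the fibronectin gene FN1, lay under a region of all libraries (30.0% over protein-coding genes). Another 14 starts had no peak (49.9% over protein-coding genes), and 9 genes had a tazemetostat-only region (47.4%, against 32.5%). Counted by region, 10 of 61 (16.4%) were tazemetostat-only, near the 13.7% over all regions. In limma 3 of 6 tested regions rose, against 42.7% of all tested regions, and 0 fell. They were both regions of FN1 and the region of SPARC (chr5:151693841-151694604), a matrix protein gene, which went from 24.4 and 25.6 to 53.9 and 53.8, a change of 1.08 (SE 0.29, adjusted p = 0.014, limma). In 1 of the FN1 regions (chr2:215435648-215436548) the groups overlapped, with 11.1 and 32.4 in the controls against 60 and 26.4 under tazemetostat. Its change was 1.02 (SE 0.41, adjusted p = 0.0477, limma).

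Of 20 further regulators, 4 starts lay under a region of all libraries (30.0% over protein-coding genes) and 15 had no peak (49.9% over protein-coding genes). A tazemetostat-only region was found for 4 genes (32.5% of protein-coding windows). The microRNA genes MIR200A, MIR200B, MIR200C, MIR141, MIR429 and MIR205 were all among those without a start peak. The protein-coding shares are thus not a like comparison for this list. MIR200C and MIR141 were both counted for the same tazemetostat-only region. The SMAD3 window held a region called in both controls alone (chr15:67108442-67108810, 8.73 and 8.4). It was 1 of 56 regions of this list, with 0.449% over all regions of the series. In limma 7 of 14 tested regions rose, near the 42.7% of all tested regions, and 0 fell, 1 of which was counted for both MIR200C and MIR141. TGFBR2, the ligand-binding TGF-beta receptor, had 3 of the 7, the one with the smallest adjusted p (chr3:30597048-30597801) going from 24.4 and 23.9 to 58.0 and 48.9, a change of 1.11 (SE 0.30, adjusted p = 0.0131, limma).

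The miR-200 family targets ZEB1 and ZEB2 messages and so maintains the epithelial state. The window of MIR200C and MIR141 had a tazemetostat-only region upstream of both hairpins (chr12:6961862-6962468), with 45.9 and 26.7. It also held a region of all libraries (chr12:6970359-6971138) with 14 and 18.1 in the controls against 37.3 and 38.8 under tazemetostat, a rise of 1.21 (SE 0.30, adjusted p = 0.0107, limma). That region lay downstream of both hairpins, past mature miR-141 (chr12:6964155-6964176). Whether it belongs to another gene was not examined, so it cannot be assigned to the microRNAs. The mature sequences from RefSeq (GRCh38.p14) are shown to place these loci in the family, with the seed (bases 2 to 8) in capitals. Seed AAUACUG is shared by miR-200b, miR-200c and miR-429, and seed AACACUG by miR-141 and miR-200a.
hsa-miR-200c-3p: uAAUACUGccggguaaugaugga
hsa-miR-200b-3p: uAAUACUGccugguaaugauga
hsa-miR-429: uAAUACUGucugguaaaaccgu
hsa-miR-141-3p: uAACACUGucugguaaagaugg
hsa-miR-200a-3p: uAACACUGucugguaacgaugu
The MIR200B and MIR200A windows each had 1 region and MIR429 and MIR205 had none, and none of the 4 had a region called in all libraries or under tazemetostat alone.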

How the data were processed

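ATAC-seq peaks of 4 HepG2 libraries (2 control, 2 tazemetostat, grouped by sample title) were used. The authors' processing, per the labels and methods, ran Trim Galore 0.6.6 for adapters, Bowtie2 2.3.5.1 for alignment (hg38) and HOMER 4.11.1 for peaks of each library. Per the file headers, 300 bp peaks were stitched into regions, with a local fold of 4 and a Poisson p-value of 0.0001 required over 10 kb. The false discovery rate was 0.001 in the headers and 0.05 in the methods. Normalised tag counts, as deposited, are a signal per 10 M mapped tags. The deposited local fold is a ratio, the deposited score counts tags in the initial peak, and the deposited p-value, score and clonal fold were not used for tests. Normalised tag count times mapped tags lay within 0.25 of a whole number in 100% of peaks.

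Peaks overlapping by at least 1 bp were merged. GENCODE 44 gave genes, and starts are those of its canonical transcripts, an anchor chosen after the gene start of EPCAM had been found to lie far upstream. For regions with 1 peak per library, limma 3.58.1 (R 4.3.3) was fitted to log2(normalised tag count + 1) over all 15383 regions, adjusted by Benjamini-Hochberg and called at 0.05. This scale understates changes of low values. Exact permutation tests of 2 against 2 libraries were two-sided. Merging and fit were tested on simulated data. The members and lists were chosen with earlier results of these data known. Named were all members, their regions with 1 peak per library, those over a start or called in one group alone, the 3 tallest per gene, and the 3 genes most like CDH1. Of the listed genes, 2 are not reported here. Values quoted for the further lists were chosen after they were seen. The main fit did not pair libraries by replicate number, as the study's methods name no replicate block. Alternatives are given below.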

Additional observations from a re-analysis of the deposited data

How the results depend on the processing

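The count of 7 tazemetostat-only regions was 3 with a local fold of at least 8, 2 with as many peaks taken from each library and 20 where a single tazemetostat library sufficed, and from 10 to 16 leaving out 1 library, when fewer libraries define the set. Of all regions, 13.3% and 5.99% were tazemetostat-only under the first pair of settings.

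The median change over all tested regions was 0.70, 0.41 per kilobase of peak and -0.06 with each library centred on its median. The 4 limma rises became 0 with each library centred on its median, and 2 with a replicate block, where the CDH1 region at 49.6 kb (adjusted p = 0.0638, limma) and the CDH2 intron region (adjusted p = 0.0643, limma) were lost. The deviations of same-numbered libraries from their group means correlated at -0.00. With 2 libraries a group both pairs give the same value by construction, and it cannot show whether libraries were processed in pairs. Over all tested regions the block left 5046 of 6569 rises. Leaving out 1 library gave 0 to 4 rises, 4 without control 2 (with the TANGO6 start and CDH2 intron regions lost and the EPCAM distal and end regions gained), 2 without control 1 and 0 without either tazemetostat library, where no region of the series passed. Centring reversed the CDH1 region at 7.68 kb (-0.29, limma) and the EPCAM distal (-0.03) and end (-0.23) regions.

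Window differences reversed per 10 M tags in peaks for CDH1 (-254) and EPCAM (-15.8), where the groups overlapped, and for the EPCAM start region (-136). With a local fold of at least 8 they reversed for SNAI2 (-4.2) and ZEB1 (-3.14). The 6 windows higher in both tazemetostat libraries became 1 per 10 M tags in peaks, and 3 each with a local fold of at least 8 and with an equal number of peaks. No share over protein-coding windows was computed for these settings. Leaving out 1 library gave -8.14 to 0 for VIM and 0 to 17.1 for SNAI1. The epithelial to mesenchymal ratio difference was 0.06 with an equal number of peaks, 0.02 with 50 kb flanks and -1.24 to 0.45 leaving out 1 library, 0.45 being without control 1. The cause of these changes was not tested. A local fold of at least 8 gave no ratio. The planned edgeR and DESeq2 alternatives were not run. Of 186 recomputed values, 138 kept their direction and side of the threshold or stayed within the allowed range.

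With 2 libraries a group, exact tests could not pass 0.05, and a missing peak has no value, so a low signal and none cannot be told apart.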
